A study of Arabidopsis thaliana with 8 samples.

Results

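Heated *Arabidopsis thaliana* seedlings were set directly against seedlings kept without oxygen (anoxia), which leaves the untreated controls out of the difference. The arrays were chosen by their labelled treatment, and 4 of the 8 Affymetrix ATH1 arrays of the study entered the difference, 2 from heat and 2 from anoxia. Heat was 38 °C for 90 minutes, and anoxia was 6 hours at 23 °C. The study also held 2 arrays of seedlings heated for 90 minutes and then kept for 6 hours without oxygen, and 2 of controls left at 23 °C. Seedlings of all 4 groups were of the ecotype Columbia 0 and were grown for 4 days in the dark at 23 °C in liquid medium with 30 mM sucrose. Whole seedlings were used, so fewer cells of a type and less RNA per cell cannot be told apart. The treatments differed in length as well as in kind, so the stress and its duration cannot be told apart in any difference between them.

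Heat unfolds proteins, and plant cells answer it by making heat shock proteins, chaperones that hold or refold them. Without oxygen, mitochondria cannot complete respiration, and plant cells turn to fermentation and to a set of hypoxia genes that is shared by many cell types. Both stresses lower the general translation of messenger RNA and act on calcium and redox signals, so a direct comparison shows which transcripts separate the treatments and which stood at like levels in both.

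Levels are given as log2 of the deposited intensity, on which a difference of 1 is a 2-fold difference, and each difference is heat minus anoxia. Of 22746 probe sets other than array controls, 14535 reached log2 4 in 2 or more of the 8 arrays and were tested. Median intensity was 42.5 and 39.5 in the heat arrays and 46.1 and 48.4 in the anoxia arrays. The heat replicates correlated at 0.979 across the tested probe sets and the anoxia replicates at 0.965, while heat and anoxia arrays correlated at 0.844 to 0.861 with each other. More than 2-fold differences were found in 26.7% to 32.0% of probe sets between a heat and an anoxia array, in 5.52% between the heat arrays and in 10.8% between the anoxia arrays. The signal of 25S ribosomal RNA was 5.81 and 6.58 in the heat arrays and 4.60 and 12.19 in the anoxia arrays, so anoxia replicate 2 stands apart, as did heat then anoxia replicate 2 at 11.46. The excess of the 3′ over the 5′ signal of actin, a sign of RNA integrity, was 0.89 and 0.93 in the heat arrays and 1.21 and 1.21 in the anoxia arrays. In the controls it was 1.07 and 1.37. The same excess of GAPDH did not separate the stresses, at -0.04 and -0.07 in heat and -0.11 and 0.04 in anoxia. The part of RNA integrity in the differences was not tested.

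Heat and anoxia left the seedlings with widely different transcript levels. A probe set was called where the limma adjusted p was below 0.05 and the difference at least 2-fold, and 3114 of 14535 (21.4%) were called. Of these, 1375 (9.46% of all tested) were higher in heat and 1739 (12.0%) were lower in heat, that is, higher in anoxia. At an unadjusted p below 0.05 the count was 5348. The median of all tested probe sets was -0.20, so the whole distribution lay slightly towards anoxia, and centring each array on its median turned the balance to 1531 higher and 1438 lower. Without the 2 arrays with a high 25S signal, 1142 were higher and 994 lower, and without heat replicate 2 the counts were 1187 and 1106.

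**Figure D1:**
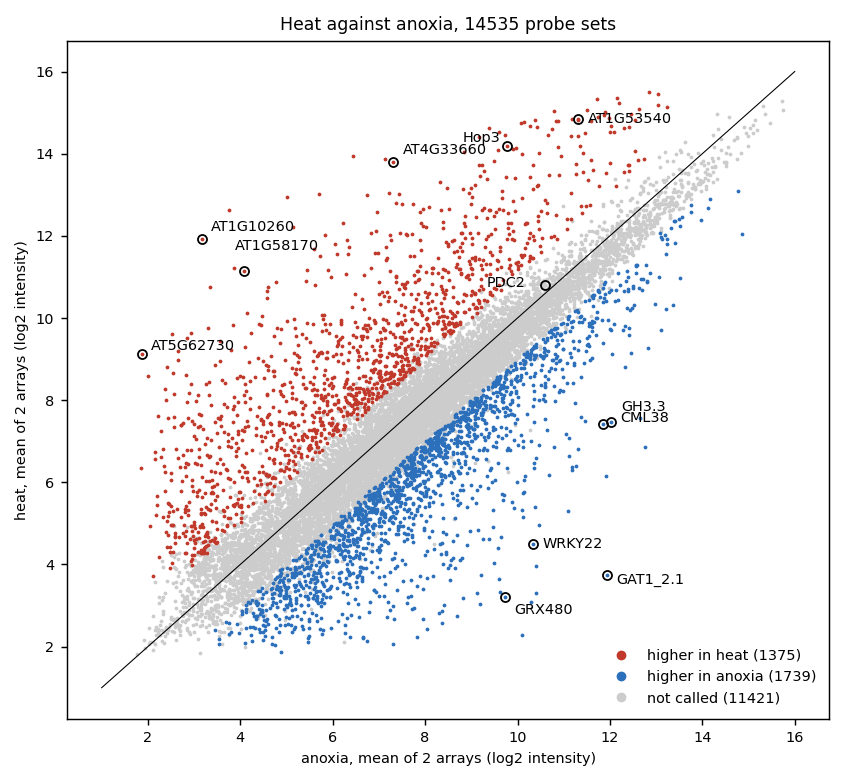
Mean log2 intensity of the 2 heat arrays (vertical axis) against that of the 2 anoxia arrays (horizontal axis), 1 point for each of 14535 tested probe sets, with the line of equality. The 1375 probe sets higher in heat lie above the line and the 1739 higher in anoxia below it, and the labelled genes are described in the text.

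Calls towards anoxia outnumbered those towards heat at most settings, though not at all of them. Quantile normalization (1506 higher, 1453 lower) and an adjusted p below 0.01 (998 and 936) also turned the balance. Leaving out anoxia replicate 2 did so too. The calls towards heat were larger. The median difference among calls was 2.16 for probe sets higher in heat and -1.65 for those lower in heat. A log2 difference of at least 3 was reached by 411 probe sets higher in heat and 193 lower in heat, and one of at least 5 by 75 and 29. Many of the largest differences rest on a group near background: 275 of the probe sets higher in heat had an anoxia mean below 4, and 372 of those lower in heat had a heat mean below 4, where the size of a fold depends on how background was removed. Among the 7343 probe sets with both means at or above 7, 581 were higher and 556 lower in heat.

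The gene furthest towards heat was AT1G10260, which RefSeq annotates as a pseudogene and whose probe set is of a kind that can match several transcripts. It read 11.70 and 12.14 in heat, 2.89 and 3.46 in anoxia and 2.79 and 2.94 in controls. Anoxia and control stood together near background and only the heated arrays stood high, for a difference of 8.74 ± 0.30 (SE; limma adjusted p = 7.58e-06), which is 429-fold. AT1G27285, also annotated as a pseudogene, had the same form, with 8.70 and 8.50 in heat, 2.23 and 1.77 in anoxia and a difference of 6.60.

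AT1G21550, placed in the list of calmodulin-like calcium sensors, read 10.73 and 10.77 in heat and 3.05 and 3.63 in anoxia, a difference of 7.41 ± 0.27 (SE; limma adjusted p = 7.58e-06). AT5G62730 read 9.36 and 8.88 in heat and 1.85 and 1.89 in anoxia, a difference of 7.25. AT5G64950 was above background in both groups, at 12.00 and 12.43 in heat and 4.91 and 5.36 in anoxia, a difference of 7.08. In each of these genes the replicates of a group lay within 0.6 of each other while the groups lay more than 6 apart. The rest of the 15 furthest towards heat differed by 5.79 (AT2G18780) to 7.08 (AT1G58170).

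The gene furthest towards anoxia was GAT1_2.1, a glutamine amidotransferase. It read 3.92 and 3.55 in heat, 11.78 and 12.10 in anoxia and 6.46 and 5.26 in controls. The controls lay between the stresses, so that heat was below and anoxia above them, and the difference was -8.21 ± 0.39 (SE; limma adjusted p = 1.48e-05), which is 296-fold higher in anoxia. AT5G14730 read 2.14 and 2.41 in heat and 9.89 and 10.31 in anoxia, a difference of -7.83. AT1G70420 read 3.04 and 3.15 in heat, 10.04 and 10.56 in anoxia and 7.50 and 7.61 in controls, a difference of -7.21.

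GRX480, a glutaredoxin of the plant-specific class that binds transcription factors, read 3.02 and 3.38 in heat and 9.19 and 10.28 in anoxia, a difference of -6.53 ± 0.54 (SE; limma adjusted p = 0.000115). WRKY22, a transcription factor of defence signalling, read 5.04 and 3.96 in heat, 9.93 and 10.76 in anoxia and 5.39 and 5.28 in controls, a difference of -5.84 (limma adjusted p = 6.31e-05). Heat and control arrays of both genes lay close to each other and the anoxia arrays stood alone. AT5G43450 and AT5G64870 had the same form, with differences of -6.43 and -5.94. The rest of the 15 furthest towards anoxia differed by -5.24 (AT4G16680) to -6.15 (AT5G10040), and among them AT1G30700, at -5.46, lost its call without heat replicate 2 or anoxia replicate 2 (limma adjusted p up to 0.0577).

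**Figure D2:**
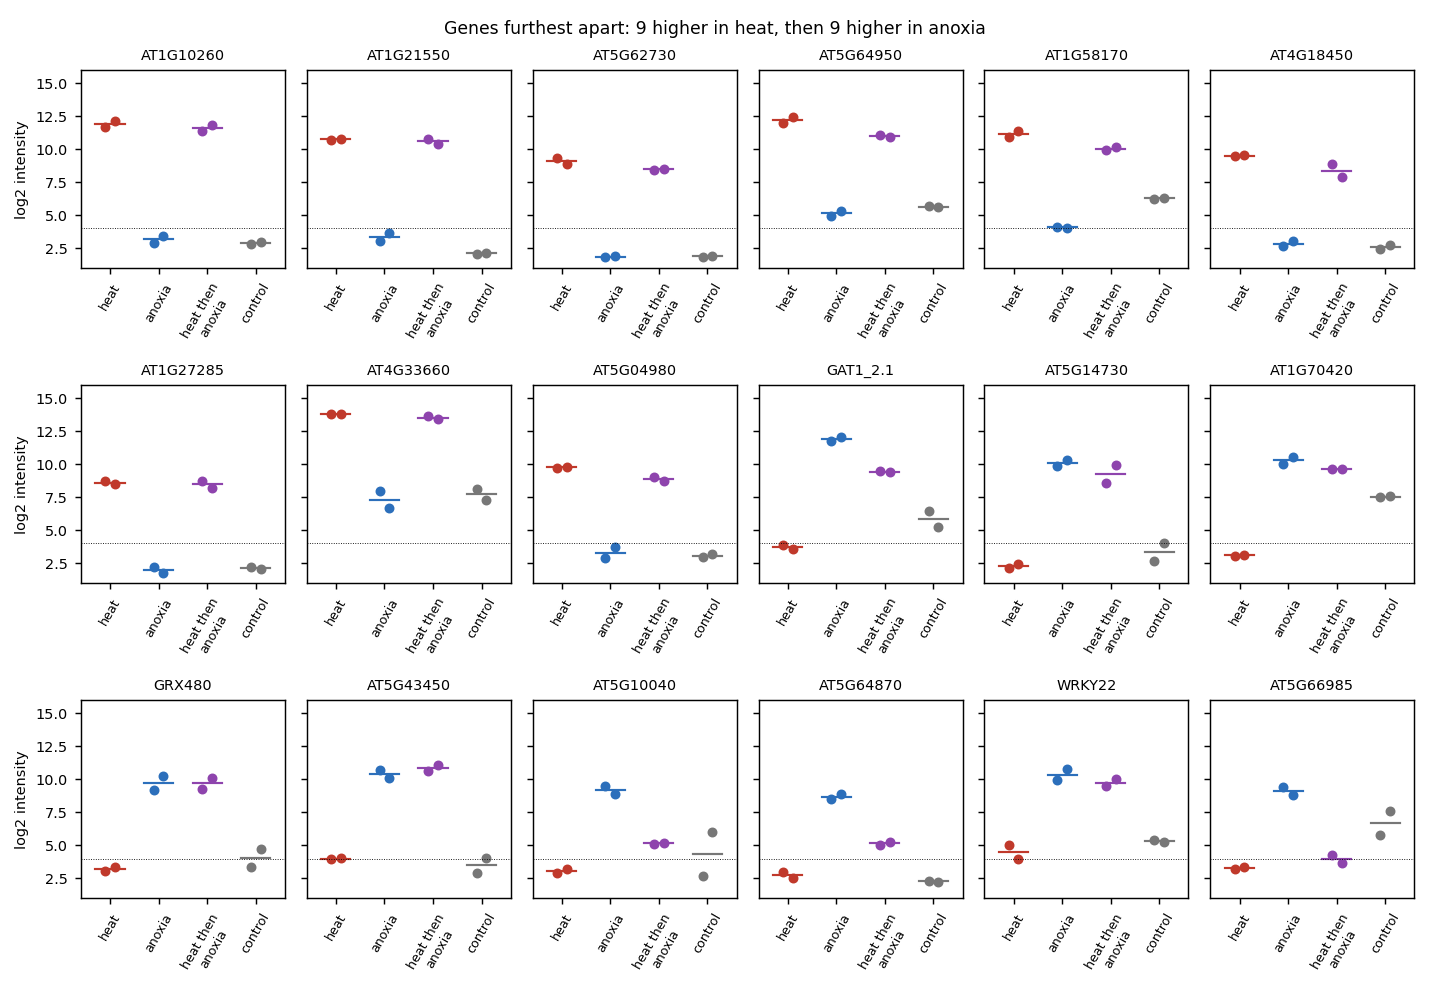
Log2 intensity of each array for the 9 named genes furthest towards heat and then the 9 furthest towards anoxia, with points for arrays, bars for group means of 2 arrays and a dotted line at log2 4, the filter on dim signals. AT1G10260 stands at 11.70 and 12.14 in heat against 2.89 and 3.46 in anoxia, and GAT1_2.1 at 3.92 and 3.55 in heat against 11.78 and 12.10 in anoxia.

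Where both groups were well above background, with means at or above 7, the named gene furthest towards heat was AT4G33660. It read 13.81 and 13.78 in heat, 7.96 and 6.67 in anoxia and 8.13 and 7.31 in controls, a difference of 6.48 ± 0.44 (SE; limma adjusted p = 5.27e-05), or 89.3-fold. AT1G72660 followed at 5.43 and AT1G66080 at 5.28, and for these anoxia lay above control as well, by 3.94 and 2.70. AT5G25450 read 14.46 in both heat arrays, 9.59 and 9.89 in anoxia and 7.50 and 7.27 in controls, so that control, anoxia and heat followed each other upward.

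Towards anoxia, GH3.3, which joins the hormone auxin to amino acids, was the furthest of the named genes bright in both groups whose call did not depend on 1 array. It read 7.54 and 7.31 in heat, 11.93 and 11.77 in anoxia and 8.40 and 8.35 in controls, a difference of -4.43 ± 0.23 (SE; limma adjusted p = 1.88e-05), or 21.5-fold higher in anoxia. WES1, another enzyme of that family, read 8.78 and 9.17 in heat and 10.19 and 10.04 in anoxia, a difference of -1.14 whose call was lost without heat replicate 1 or anoxia replicate 1 (limma adjusted p up to 0.0949). In WES1 the controls, at 10.24 and 9.84, stood with anoxia. In GH3.3 they lay between the stresses and nearer to heat. There heat minus control was -0.96 (limma adjusted p = 0.0144) and anoxia minus control 3.47. These 2 genes are the measured members of 14 listed for auxin. Both were lower in heat, as were 12.0% of all tested probe sets.

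Small heat shock proteins bind unfolding proteins and keep them from clumping. Of the 10 measured genes of 19 listed, 8 were higher in heat and 0 lower, where 9.46% of all tested probe sets were higher, and the list's median was 2.51 against -0.20 over all probe sets. AT2G19310 read 14.06 and 14.00 in heat and 8.82 and 8.87 in anoxia, a difference of 5.18 ± 0.40 (SE; limma adjusted p = 9.15e-05). AT1G53540 read 14.77 and 14.94 in heat, 10.98 and 11.65 in anoxia and 2.29 and 2.17 in controls, a difference of 3.54 ± 0.28 (SE; limma adjusted p = 9.39e-05). ATHSP22.0 read 15.15 and 14.78 in heat, 12.41 and 12.50 in anoxia and 7.46 and 6.21 in controls, a difference of 2.51.

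Small heat shock proteins also stood above control in anoxia. The list's median was 8.01 for heat minus control and 5.50 for anoxia minus control, differences that share the same 2 control arrays. AT1G52560, for example, stood 12.25 above control in heat and 8.67 in anoxia, and AT2G19310 stood 6.06 above control in heat and 0.88 in anoxia (limma adjusted p of heat minus anoxia 3.83e-05 and 9.15e-05). AT4G21870 and AT5G47600 were not called, at -0.64 and 0.10. The deposited scale ended at 15.46 to 15.76 in every array, close to the heat values of this list, and whether such spots were saturated is not recorded in the values.

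Genes listed as larger chaperones, which fold proteins with ATP, or as their helpers were mostly higher in heat too. Many of the measured members were helpers, among them Fes1A and Hop3, so the counts do not stand for the ATP-driven chaperones alone. Of 12 measured genes of 31 listed, 11 were higher in heat and 0 lower, where 9.46% of all tested probe sets were higher. The list's median was 3.81. The counts of both chaperone lists were the same without the 2 arrays with a high 25S signal. AT1G71000 read 14.12 and 14.05 in heat, 9.48 and 9.66 in anoxia and 2.41 and 2.83 in controls, a difference of 4.52 ± 0.24 (SE; limma adjusted p = 1.94e-05). Fes1A, which helps HSP70 release its nucleotide, read 13.82 and 13.62 in heat and 8.97 and 9.50 in anoxia, a difference of 4.49. Hop3, which links HSP70 to HSP90, read 14.02 and 14.34 in heat and 9.00 and 10.54 in anoxia, a difference of 4.41.

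Within this list the genes differed in where anoxia stood. Hsp70-2, an HSP70 of the cytosol, read 12.23 in both heat arrays, 8.20 and 7.71 in anoxia and 7.95 and 8.35 in controls, so that anoxia and control overlapped and the difference of 4.27 lay between heat and both of them. Hop2 and AT3G09440, named after their values were seen, likewise stood above control by 3.49 and 3.85 in heat and by 0.82 and 0.17 in anoxia. Hop3 stood 9.52 above control in heat and 5.11 in anoxia, and AT5G48570, the immunophilin ROF2 (also named after its values were seen), 8.30 in heat and 4.37 in anoxia. Hop1, named after its values were seen, was not called, at 8.64 and 8.76 in heat and 9.12 and 8.70 in anoxia (limma adjusted p = 0.613).

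Genes of the endoplasmic reticulum's unfolded protein response were also higher in heat than in anoxia, with 1 exception. This response watches over the folding of secreted proteins. Of 6 measured genes of 17 listed, 5 were higher and 1 lower, with a median of 1.82, and without the 2 arrays with a high 25S signal 3 were higher and 0 lower. The shares over all tested probe sets were 9.46% higher and 12.0% lower. The list's median was 0.96 for heat minus control and -0.57 for anoxia minus control. BZIP28, a membrane-tethered transcription factor released by the stress, read 10.90 and 10.68 in heat, 8.03 and 8.65 in anoxia and 8.36 and 8.37 in controls. Its difference was 2.45 ± 0.27 (SE; limma adjusted p = 0.000476). BZIP17, a related factor, read 8.19 and 8.04 in heat, 5.67 and 5.57 in anoxia and 7.27 and 6.82 in controls, a difference of 2.49. Heat arrays of both genes lay above and anoxia arrays of BZIP17 below the controls.

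ATERDJ3B, a co-chaperone of the reticulum, differed by 2.34, and CRT1b, the lectin chaperone calreticulin, by 1.25 (1.19 and not called without the arrays with a high 25S signal, limma adjusted p = 0.0575). AT5G07340, listed as a calnexin, differed by 1.31 and lost its call when either heat array or anoxia replicate 2 was left out (limma adjusted p up to 0.0607). BZIP60, the factor activated through splicing of its messenger RNA, went the other way at 9.02 and 9.17 in heat and 10.21 and 10.58 in anoxia, a difference of -1.30. That call was lost when either heat array or anoxia replicate 2 was left out (limma adjusted p up to 0.106).

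**Figure D3:**
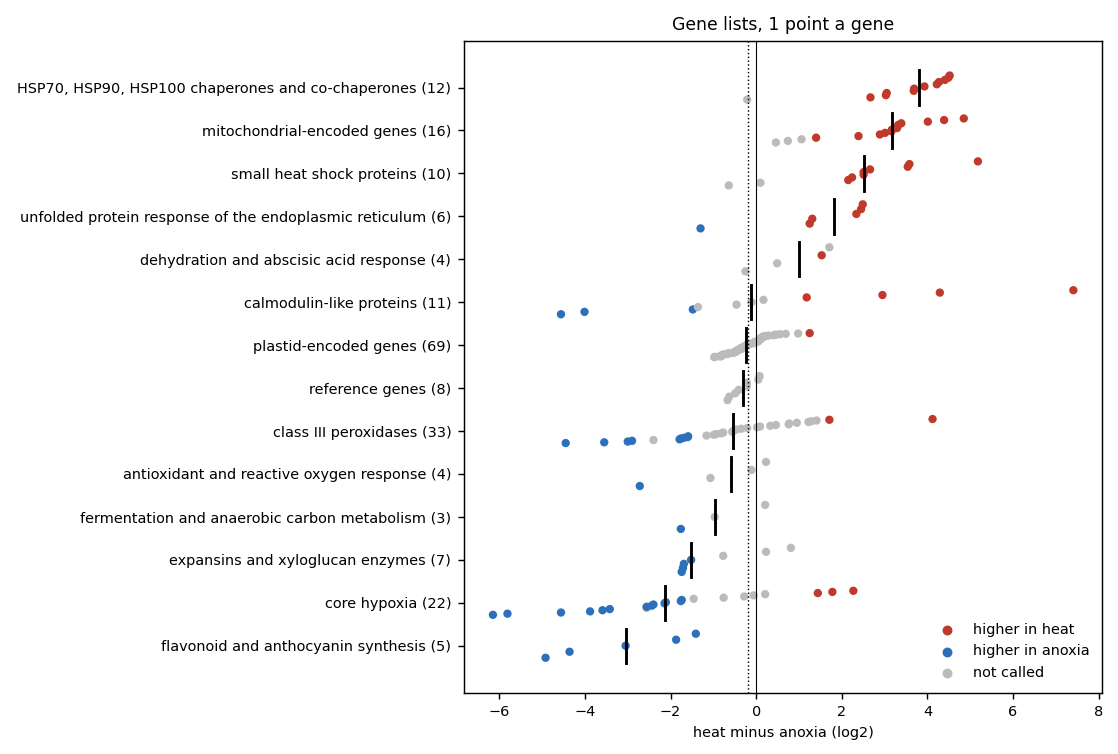
Heat minus anoxia on the log2 scale for the measured members of 14 gene lists, 1 point a gene, ordered by the list median (thick bars), with the number measured in brackets and the median of all tested probe sets as a dotted line at -0.20. Points of the chaperone and mitochondrial lists lie to the right (medians 3.81 and 3.16), and those of the core hypoxia and flavonoid lists to the left (medians -2.13 and -3.05).

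The core hypoxia genes are induced when oxygen is low in many plant cell types. Of 22 measured genes of 46 listed, 13 were lower in heat, where 12.0% of all tested probe sets were lower, 3 were higher and 6 were not called, with a median of -2.13. Without the 2 arrays with a high 25S signal, 9 were lower and 3 higher. AT5G10040 read 2.91 and 3.17 in heat, 9.48 and 8.89 in anoxia and 2.66 and 5.99 in controls, a difference of -6.15 ± 0.88 (SE; limma adjusted p = 0.00188). AT5G66985 read 3.23 and 3.36 in heat, 9.39 and 8.84 in anoxia and 5.79 and 7.60 in controls, a difference of -5.81. AT4G10270 read 8.13 and 6.22 in heat, 11.39 and 10.73 in anoxia and 8.79 and 9.95 in controls, a difference of -3.88. In this gene heat minus control was -2.19 and anoxia minus control 1.69. The list's median was -0.39 for heat minus control and 1.84 for anoxia minus control.

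The anoxia arrays of these 3 genes stood above the heat arrays, while the controls of AT5G10040 and AT5G66985 were far apart from each other. The error of a difference reflects the spread of all 4 groups, so far-apart controls widen it. CML38, a calmodulin-like protein, read 7.84 and 7.09 in heat, 11.62 and 12.44 in anoxia and 4.89 and 8.89 in controls. Its standard deviation was 0.53 in heat, 0.58 in anoxia and 2.82 in controls. Its difference of -4.56 ± 1.09 (SE; limma adjusted p = 0.0194) was not called once any 1 of the heat or anoxia arrays was left out (limma adjusted p up to 0.0992). AT2G17850, AT1G74940 and AT1G33055, named after their values were seen, were called at -2.56, -2.44 and -2.14 and lost their calls without at least 1 of these arrays (limma adjusted p up to 0.0899, 0.119 and 0.0545).

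Of the listed hypoxia genes, 3 were higher in heat, and all 3 also stood above control in anoxia; they were named after their values were seen. AT3G10020 read 14.80 and 14.83 in heat, 12.12 and 12.98 in anoxia and 8.15 and 7.85 in controls, a difference of 2.27 ± 0.31 (SE; limma adjusted p = 0.00143). AT3G23170 differed by 1.78 and AT3G03270 by 1.44. In AT3G03270 heat stood 4.08 and anoxia 2.64 above control.

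Fermentation was represented by 3 measured genes of 13 listed, of which 1 was lower in heat and 0 higher. The shares over all tested probe sets were 12.0% lower and 9.46% higher. PDC2, a pyruvate decarboxylase and so an entry enzyme of ethanol fermentation, read 10.98 and 10.61 in heat, 10.43 and 10.74 in anoxia, 12.67 and 12.74 in heat then anoxia, and 8.62 and 8.99 in controls. Heat and anoxia overlapped, with a difference of 0.21 (95% confidence interval -0.38 to 0.81; limma adjusted p = 0.593), and stood 2.00 and 1.78 above the shared controls. AT4G17260, in the list as a lactate dehydrogenase, read 7.92 and 6.81 in heat and 9.22 and 9.02 in anoxia, a difference of -1.76 (limma adjusted p = 0.0102; -1.86 and 0.0595 without the arrays with a high 25S signal). PPDK, which interconverts pyruvate and phosphoenolpyruvate, was not called, at -0.97 (95% confidence interval -1.91 to -0.03; limma adjusted p = 0.126).

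Genes of flavonoid and anthocyanin synthesis, the pathway of plant pigments, were lower in heat in all 5 measured genes of 12 listed, with a median of -3.05, and in 3 of them without the 2 arrays with a high 25S signal. Over all tested probe sets, 12.0% were lower. AT5MAT, which adds malonyl groups to anthocyanins, read 3.66 and 3.57 in heat, 7.96 and 9.11 in anoxia and 7.71 and 6.90 in controls. Its difference was -4.92 ± 0.41 (SE; limma adjusted p = 0.000121). UF3GT, an anthocyanin glycosyltransferase, read 4.97 and 6.53 in heat, 9.87 and 10.36 in anoxia and 10.26 and 9.81 in controls, a difference of -4.36. Heat minus control was -3.69 in AT5MAT and -4.28 in UF3GT, and anoxia minus control was 1.23 in AT5MAT and 0.08 in UF3GT.

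The earlier enzyme DFR, dihydroflavonol reductase, read 9.97 and 9.94 in heat and 11.47 and 12.18 in anoxia, a difference of -1.87 (limma adjusted p = 0.00585; -1.52 and 0.061 without the arrays with a high 25S signal). AT4G14090 differed by -3.05. UGT78D2, a flavonoid glucosyltransferase, differed by -1.41 and lost its call without heat replicate 1 or anoxia replicate 2 (limma adjusted p up to 0.11). The list's median was -2.44 for heat minus control and 0.61 for anoxia minus control.

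Enzymes that loosen or remodel the cell wall, needed for the elongation of dark-grown seedlings, were lower in heat in 4 of 7 measured genes of 16 listed and higher in 0, with a median of -1.52, and without the 2 arrays with a high 25S signal 2 were lower and the median was -0.95. The share lower in heat over all tested probe sets was 12.0%. XTH18, a xyloglucan-remodelling enzyme, read 9.93 and 9.84 in heat, 11.59 and 11.65 in anoxia and 11.32 and 11.38 in controls. Its difference was -1.74 ± 0.22 (SE; limma adjusted p = 0.000949). XTH20 differed by -1.69, and its controls too lay close to anoxia. The expansins EXPA4 and EXPA8 differed by -1.71 and -1.52, with both stresses below control. Without anoxia replicate 2 their differences were -1.12 and -0.95, and their calls were lost when either heat array was left out, that of EXPA8 also without anoxia replicate 2 (limma adjusted p up to 0.0702 and 0.121).

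EXPA7 and EXPA18, expansins of root hairs, were near background in both stresses, at 2.17 and 2.14 and at 2.68 and 3.43 in heat, and at 1.89 and 1.96 and at 2.17 and 2.32 in anoxia. Their controls read 6.20 and 4.09, and 6.78 and 5.17. Both genes passed the filter through the control arrays alone, so controls above the stresses followed from how they were kept. Heat and anoxia could not be compared for them, though both count as measured and not called in the cell wall list above. These were the 2 measured of 11 listed markers of root hair and endodermis. PORB, a chlorophyll-synthesis enzyme of dark-grown cotyledons and the 1 measured of 7 such markers, read 13.36 and 13.35 in heat and 13.67 and 13.38 in anoxia, a difference of -0.17 that was not called.

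Class III peroxidases, which the cell secretes and which use hydrogen peroxide on wall polymers, had members called in both directions. Of 33 measured genes of 74 listed, 9 were lower and 2 higher in heat, where 12.0% of all tested probe sets were lower and 9.46% higher, with a median of -0.54. AT5G39580 read 4.56 and 2.89 in heat and 8.06 and 8.28 in anoxia, a difference of -4.45 ± 0.59 (SE; limma adjusted p = 0.00128), and AT4G36430 differed by -3.00. AT1G49570 differed by -3.55, and by -2.92 without the arrays with a high 25S signal, when it was not called (limma adjusted p = 0.0741). AT4G26010 ran the other way, at 7.57 and 8.09 in heat, 3.88 and 3.55 in anoxia and 8.81 and 7.61 in controls, a difference of 4.12 ± 0.44 (SE; limma adjusted p = 0.000414). Here heat overlapped control and anoxia lay below both.

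Calmodulin-like proteins, which read calcium signals, had members called in both directions. Of 11 measured genes of 23 listed, 4 were higher and 3 lower in heat. Over all tested probe sets, 9.46% were higher and 12.0% lower. The list's median was -0.11 and ran from -0.34 without anoxia replicate 2 to -0.00 without anoxia replicate 1. CML37 read 8.91 and 8.78 in heat, 4.36 and 4.74 in anoxia and 2.23 and 2.14 in controls, a difference of 4.29 ± 0.23 (SE; limma adjusted p = 2.08e-05). AT1G76640 read 6.39 and 5.92 in heat, 9.20 and 11.13 in anoxia and 3.95 and 3.92 in controls, a difference of -4.01 ± 0.60 (SE; limma adjusted p = 0.00225). Both genes stood above control in both stresses, CML37 more in heat and AT1G76640 more in anoxia.

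CML23, named like AT2G41410 after its values were seen, differed by 2.95 and lost its call without heat replicate 2 (limma adjusted p = 0.0523). AT2G41410 differed by 1.18 and lost it when either heat array or anoxia replicate 1 was left out (limma adjusted p up to 0.101).

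STZ and AT2G21640 were above control in both stresses and differed little between them. STZ, a zinc-finger repressor induced by many stresses, read 10.31 and 10.16 in heat, 9.86 and 10.14 in anoxia and 2.94 and 7.29 in controls. The difference was 0.23 (95% confidence interval -2.36 to 2.83), an interval that reflects the spread of all 4 groups, the far-apart controls included. AT2G21640 read 10.47 and 10.07 in heat, 10.26 and 10.49 in anoxia and 6.79 in both controls, a difference of -0.11 (95% confidence interval -0.71 to 0.50). In the same list of 4 measured of 18 antioxidant genes, GSTU25, a glutathione transferase, was lower in heat by -2.72 and lost its call without heat replicate 2 or either anoxia array (limma adjusted p up to 0.117), and GSTU22 was not called.

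Among 4 measured of 13 genes of dehydration and abscisic acid, COR47, a dehydrin, read 14.29 and 13.86 in heat and 12.39 and 12.71 in anoxia. Its difference of 1.53 lost its call without heat replicate 1 or anoxia replicate 1 (limma adjusted p up to 0.0938). COR15A, COR15B and LTI30 were not called, at 0.49, 1.71 and -0.25.

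MCCA, an enzyme of leucine breakdown and the 1 measured of 12 genes of sugar starvation, was lower in heat, at 7.37 and 8.06 against 9.58 and 9.40 in anoxia, a difference of -1.78 (limma adjusted p = 0.00403). EIN3, the ethylene transcription factor, did not reach 2-fold, at -0.88 (limma adjusted p = 0.0392), and PRL, a DNA replication protein, was not called. AT3G22660 and AT3G05060, the 2 measured of 9 listed nucleolar genes, were not called, at -0.24 and -0.21. None of the 8 measured reference genes of 14 listed was called, beside 21.4% of all tested probe sets. Their median was -0.32, with GAPC2 and PEX4 at -0.63 and -0.67 and AT4G26410 at 0.08.

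Transcripts encoded by the mitochondrial genome formed a further group higher in heat. Of 16 measured genes, 13 were higher and 0 lower in heat, with a median of 3.16 (12 higher without the 2 arrays with a high 25S signal). In 15 of 16 both heat arrays lay above both anoxia arrays, where 22.8% of all tested probe sets did so. Calls higher in heat made up 9.46% of all tested probe sets. The cytochrome oxidase gene cox2 read 11.40 and 11.51 in heat, 8.07 and 8.50 in anoxia and 4.64 and 4.84 in controls, a difference of 3.17 ± 0.26 (SE; limma adjusted p = 0.000121). The complex I gene nad6 read 11.48 and 12.31 in heat, 8.07 and 7.69 in anoxia and 3.82 and 2.83 in controls, a difference of 4.01. The cytochrome c assembly gene ccb203 read 9.87 and 9.59 in heat, 4.93 and 4.83 in anoxia and 2.38 and 2.00 in controls, a difference of 4.85.

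Anoxia thus lay between heat and control in these 3 genes, and over the list the median was 6.16 for heat minus control and 2.73 for anoxia minus control. The genes nad2, nad4 and nad7 were not called, at 0.46, 0.74 and 1.06. The calls of nad1 (3.30), ccb382 (1.40) and orfX (2.89) were lost without at least 1 of the heat or anoxia arrays (limma adjusted p up to 0.0845, 0.123 and 0.16). Among the genes of this list, cox2, nad1, ccb382, orfX and the 3 not called were named after their values were seen.

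Chromosome 2 carries a copy of mitochondrial DNA, and the probe sets matched to its AT2G07 loci cannot be told apart from the organelle's own transcripts. Of 22 such probe sets tested, 20 were higher and 0 lower in heat, where 9.46% of all tested probe sets were higher. Their median was 3.20. AT2G07722, the one among the genes bright in both groups, read 12.80 and 12.52 in heat and 8.79 and 7.10 in anoxia, a difference of 4.71 (limma adjusted p = 0.00257). Together, the probe sets of these loci and of named organelle genes made up 40 of the 1375 probe sets higher in heat.

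Plastid-encoded transcripts were measured for 69 genes. Of these, 1 was higher and 0 lower in heat, beside 9.46% higher and 12.0% lower over all tested probe sets. Their median was -0.23 against -0.20 over all tested probe sets. The plastid median was 0.15 without heat replicate 1, -0.54 without heat replicate 2 and -0.10 without anoxia replicate 2, so its sign and size rest on single arrays. The 1 called was psbA, which encodes the D1 protein of photosystem II. It read 12.63 and 12.82 in heat and 11.54 and 11.42 in anoxia, a difference of 1.25 that lost its call when any 1 of the heat, anoxia or control arrays was left out (limma adjusted p up to 0.179).

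**Figure D4:**
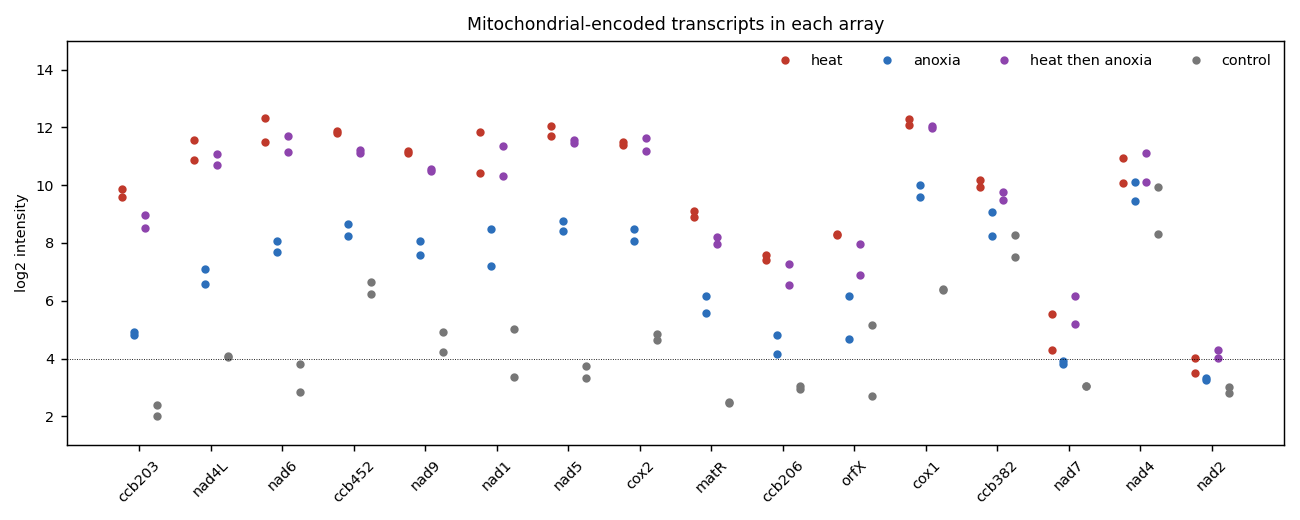
Log2 intensity in each array for the 16 measured mitochondrial-encoded genes, ordered by heat minus anoxia, 1 point an array, with a dotted line at log2 4, the filter on dim signals. For ccb203 heat stands at 9.87 and 9.59, anoxia at 4.93 and 4.83 and control at 2.38 and 2.00, and heat and anoxia overlap in nad4.

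A difference between heat and anoxia can come from either stress, and the control arrays locate it. A group was counted as away from control where its mean lay at least 1 from the control mean on the log2 scale, a description with no test, since the 2 control arrays are shared by both stresses. In the fits against control, 10.5% of all tested probe sets were called higher and 17.9% lower in heat, and 3.95% higher and 5.92% lower in anoxia. Of the 1375 probe sets higher in heat, 854 (62.1%) had heat above control with anoxia not away from it, and 238 (17.3%) had both stresses above. In 104 (7.56%) only anoxia was away, below control, and in 52 (3.78%) the stresses lay on opposite sides. In 118 (8.58%) neither was away.

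The 1739 probe sets lower in heat were placed in like manner. In 984 (56.6%) heat was below control and anoxia not away from it, and in 232 (13.3%) anoxia was above control and heat not away. Both stresses were below control in 173 (9.95%), above it in 30 (1.73%) and on opposite sides in 96 (5.52%). In 224 (12.9%) neither was away. Over all tested probe sets, heat alone was above control in 8.26% and below it in 13.2%, and anoxia alone above in 2.57% and below in 2.34%. Both were below it in 6.9%, above it in 2.92% and on opposite sides in 1.05%, and neither was away in 62.7%. A call required heat and anoxia to differ by at least 1, so called probe sets stand away from control more often by selection. The counts depend on the margin: heat alone was above control in 642 of the probe sets higher in heat at a margin of 0.5 and in 759 at 1.5, and below control in 780 and 830 of those lower in heat.

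**Figure D5:**
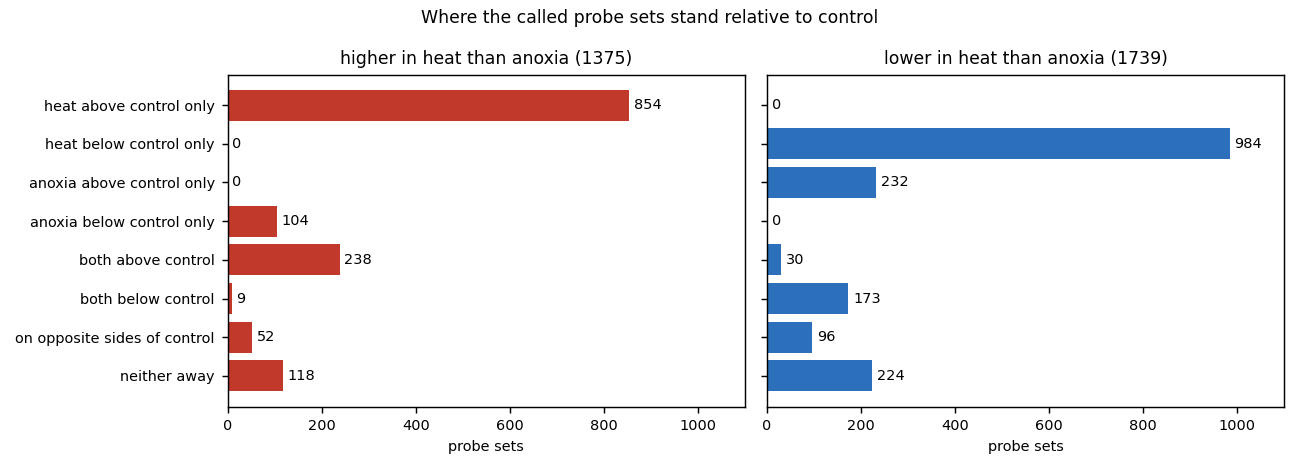
Number of probe sets (horizontal axis) by where their heat and anoxia means lie relative to the control mean, with away meaning at least 1 on the log2 scale, for the 1375 higher in heat (left) and the 1739 lower in heat (right). The longest bars are heat above control only (854) and heat below control only (984).

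Genes of each class show the forms. UF3GT, the anthocyanin gene above, belongs to those low in heat alone, as do ATPMEPCRB, a pectin methylesterase, and AT1G21050 and AT5G66650, all 3 named after their values were seen. AT5G66650 read 5.06 and 5.27 in heat, 9.77 and 10.47 in anoxia and 9.56 and 10.02 in controls, a difference of -4.96. GRX480, WRKY22, AT5G43450, AT5G64870 and AT2G32020 belong to those high in anoxia alone.

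AT4G26010, the peroxidase above, and AT2G26680, named after its values were seen, belong to those low in anoxia alone. AT2G26680 read 8.10 and 8.12 in heat, 5.22 and 4.63 in anoxia and 7.33 and 7.35 in controls, a difference of 3.19. AT4G36010 lay on opposite sides of control, at 12.47 and 11.57 in heat, 5.91 and 5.74 in anoxia and 8.54 and 7.83 in controls, and so did AT1G58170, at 10.92 and 11.39 in heat, 4.14 and 4.01 in anoxia and 6.27 and 6.31 in controls. GAT1_2.1 and AT1G70420 lay on opposite sides in the reverse order.

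Seedlings of the heat then anoxia group had both treatments, and their place between heat and anoxia was measured on a scale of 0 at the anoxia mean and 1 at the heat mean. For probe sets higher in heat the median place was 1.02, and 1263 of 1375 (91.9%) lay nearer to heat. For probe sets lower in heat it was 0.73, and 1134 of 1739 (65.2%) lay nearer to heat. Over all tested probe sets the share was 67.9%, but most of them were not called. Where heat and anoxia differ little the place is poorly set, with quartiles of 0.01 and 2.13 among those not called. The 67.9% is therefore not a like baseline for the called probe sets. The 232 with only anoxia above control were placed at a median of 0.40, with 43.1% nearer to heat, and the 96 on opposite sides at 0.30, with 28.1%.

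Single genes spanned this range. Hop3 read 14.20 and 14.67 in heat then anoxia, beside its 14.02 and 14.34 in heat, and AT1G10260 read 11.37 and 11.82. GRX480 read 9.27 and 10.11 in heat then anoxia, close to its 9.19 and 10.28 in anoxia, and WRKY22 read 9.50 and 9.99. AT5G66985 read 4.24 and 3.67 in heat then anoxia, near its heat values of 3.23 and 3.36, and AT5G10040 read 5.13 and 5.16, between heat and anoxia. PDC2, alike in heat and anoxia, stood above both in the combined treatment, and so did LTI30, a dehydrin, at 13.60 and 13.28 beside 9.23 and 8.68 in heat and 8.83 and 9.57 in anoxia.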

How the data were processed

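RNA of whole seedlings was measured on 8 Affymetrix ATH1 arrays, 2 in each of 4 groups. The authors deposited linear intensity values, made with GCRMA per the submitters' processing notes, in a version not given in the sources used here. As background, GCRMA models nonspecific signal from probe sequence, which can move dim probe sets. These intensities were log2-transformed without renormalizing, and 64 array controls out of 22810 probe sets were left out. Group means of all 4 groups entered 1 linear model (limma 3.58.1, R 4.3.3), with moderated variances (4 residual degrees of freedom), and p was adjusted over all 14535 tested probe sets by Benjamini-Hochberg. Nothing beyond the label of biological replicates says how separate the cultures were, so p-values measure the spread between these samples. The number of arrays limits the precision.

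Names came from the platform annotation and RefSeq, which gave 1 gene for 7823 tested probe sets, several for 332 and none for 6380. A listed gene is measured where these tables name a probe set that passed the filter. The heat shock transcription factor and jasmonate lists had 0 measured genes. The members and lists were chosen with earlier results of these data known. Named are the 15 furthest genes in each direction whose heat and anoxia arrays do not overlap, the 10 furthest with both means at or above 7, the 4 furthest members of each list, all members of lists with up to 10 measured, and the reference genes. A planned search of promoters was not run.

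Simulated data for this comparison held 14535 probe sets, with 50 changed at each size. The fit recovered 8%, 76%, 80% and 94% of log2 differences of 1, 2, 3 and 4, with 6 false calls. Far fewer probe sets were changed there than the 21.4% called in the data, so the adjusted p was harder to pass. A log2 difference of 1 also lay at the threshold of a call. These shares therefore do not give the recovery in the data. Figures used matplotlib 3.10.9 in Python 3.11.15.

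Alternatives varied the filter (off, or log2 6), the prior variance, the groups in the model, the scaling (quantile or median), the added constant, the thresholds, cross-hybridising probe sets, a replicate block and each array in turn. A group left with 1 array was assumed to vary like the others.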

Additional observations from a re-analysis of the deposited data

How the results depend on the processing

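Of 266 named or listed probe sets, none reversed under those of the 20 alternatives that included them. Of 137 called ones, 113 kept their call in every alternative that included them, while 24 lost it in at least 1. Not all alternatives included all 266: the filter at log2 6 held 251 of them. The fit without cross-hybridising probe sets held 258, so AT1G10260 and AT2G07722, among others, were not tried there. The count higher in heat was 1044 to 1344 and the count lower in heat 1106 to 1692 when 1 array was left out, and 998 and 936 at an adjusted p below 0.01. Without the 2 arrays with a high 25S signal, chosen after seeing the data, 994 were lower in heat, and 18 of the named or listed probe sets lost their call. Same-numbered deviations correlated at 0.272 between heat and anoxia and at 0.022 to 0.298 over all pairs of groups, all above 0 but too low in some pairs to treat the numbers as pairing the samples, and a replicate block gave 1431 higher and 1854 lower. Leaving out 1 array moved list medians to 1.71 to 2.00 (unfolded protein response), 2.21 to 2.80 (small heat shock proteins), 3.41 to 4.09 (chaperones), -1.04 to -0.14 (antioxidant), -0.34 to -0.00 (calmodulin-like), -3.48 to -2.62 (flavonoid) and -0.43 to -0.24 (reference genes). Median centring gave 1.96 for the unfolded protein response, 0.02 for calmodulin-like and -0.19 for reference genes, and log2(intensity + 16) gave 1.70 for the unfolded protein response. With a margin of 0.5 from control the counts among probe sets higher in heat were 642 (only heat, above), 398 (both above) and 226 (opposite sides), and among those lower in heat 780 (only heat, below), 47 (both above), 400 (both below) and 315 (opposite sides). With a margin of 1.5 they were 759 (only heat, above), 67 (only anoxia, below) and 13 (opposite sides) among those higher in heat, and 830 (only heat, below), 16 (both above), 59 (both below) and 28 (opposite sides) among those lower in heat. The causes were not tested.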
